A study of Rattus norvegicus with 8 samples.

Results

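The genes described here are 5 translation factor genes of the rat dorsal root ganglion (DRG), which holds the cell bodies of sensory neurons. They are Eif1b, Eif3a, Eif3el1, Eif5a2 and Eef1e1, out of 32623 gene identifiers with counts from RNA sequencing. A gene was taken when it had at least 10 counts in at least 2 libraries and a symbol of the form used for cytosolic ribosomal proteins, mitochondrial ribosomal proteins, initiation factors or elongation factors. Symbols were at hand for 1961 identifiers, namely those in the study's published gene lists, and 1960 of them passed the minimum. Symbols of these forms belonged to 7 genes, of which the pair Eif2s3 and Eif2s3y was left out by name. No cytosolic and no mitochondrial ribosomal protein gene carried a symbol of that form, so the genes are 4 named as initiation factors and 1 named as an elongation factor, and nothing here bears on ribosomal proteins as a class. All 5 passed the filter on low counts that left 16988 genes for testing.

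The samples were 8 libraries, each made from the DRGs at lumbar levels L4 to L6 on one side of 1 adult Sprague-Dawley rat. The 4 groups of 2 rats each were males and females, either naïve or with CCI, and no group carried a transgene or drug. In chronic constriction injury (CCI) silk sutures are tied loosely around the sciatic nerve, and the DRGs of that side were taken on day 14. Naïve rats had no surgery, so the injury cannot be told apart from anesthesia and incision. The authors had left out rats without the expected change in paw withdrawal threshold, and also a naïve rat whose threshold was unusually low. The phase of the estrous cycle was not recorded.

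The genes were in effect chosen by their measured expression in these libraries, since that put them in the published lists, so most comparisons between the groups had already been used to choose them. Eef1e1 and Eif3el1 were listed as higher in naïve females than in naïve males. Eif1b, Eif3a and Eif5a2 were listed for a change after CCI that was not the same in males and females. The comparisons that went into a gene's listing are given below as values without a test, and where calls in them are counted, the counts are descriptions. A test is given for CCI against naïve averaged over the sexes. The weights of that contrast are orthogonal to both of those used in the listing, though it shares their estimate of the spread. Where groups differ in spread or deviate together, such weights do not make it fully independent. Another test, for Eef1e1 and Eif3el1, is of CCI females against CCI males and uses no naïve library. Same-numbered naïve and CCI males deviated together (correlation 0.731 over genes), so neither test is fully independent of the listing.

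Translation of an mRNA starts when initiation factors bring the small ribosomal subunit and the initiator tRNA to the start codon. The eIF3 complex binds the small subunit and holds the other factors and the mRNA on it, and eIF1 monitors whether the scanning ribosome has met a start codon. The protein eIF5A carries hypusine, a modified lysine found in no other family of proteins, and helps the ribosome through elongation and termination. In sensory neurons, translation is known as a step in the response to nerve injury, both in the cell body and in the axon. An mRNA level says nothing by itself about how much of a factor is made or how active it is.

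A sequence found in the promoters of 3 of the 5 genes is shown first. RefSeq promoters on the GRCr8 assembly, from 250 bases before to 50 bases after the annotated start, were at hand for 4 of the 5 genes, with Eif3el1 the one without. The hexamer CACGTG, a palindrome that reads alike on both strands and is the core of the E-box bound by MYC and USF proteins, was found in the promoters of Eif1b, Eif3a and Eif5a2. It is in 6.42% of the 33469 promoters of the table. The matches are printed 5′ to 3′ on the strand of the gene, with the hexamer in capitals and 12 bases on each side.
Eif1b (chr8:129081092-129081121, + strand): ggaacgtgtggtCACGTGgcggcggcgcgc
Eif3a (chr1:269918978-269919007, - strand): ccgcgagggaatCACGTGgctccttccttt
Eif5a2, upstream match (chr2:113657626-113657655, + strand): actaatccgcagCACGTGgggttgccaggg
Eif5a2, downstream match (chr2:113657651-113657680, + strand): cagggcgagcttCACGTGactgggcgggac
The hexamer begins at base -54 from the annotated start in Eif1b, at base 31 of the transcript in Eif3a, and at bases -196 and -171 in Eif5a2. Eef1e1 has no match in this window. The 3 genes with a match were listed for a sex difference in the change after CCI, and their changes ran in different directions. Since Eef1e1 was the only other gene with a promoter at hand, nothing is read from this. A match in these letters is a description and not a binding site.

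Other short motifs were searched in the same windows on both strands. The ETS core CCGGAAG, present in 8.75% of all promoters, had 1 match in Eif1b and 2 in Eif5a2. The GC box GGGCGG, present in 33.1%, was found in all 4 promoters, with 6 matches in Eif5a2, 2 each in Eef1e1 and Eif1b, and 1 in Eif3a. The box CCAAT, present in 37.5%, had 1 match each in Eef1e1 and Eif5a2. Neither TATAAA, which is in 14.2% of promoters, nor the cAMP response element TGACGTCA, which is in 1.83%, was found in any of the 4. The promoters of Eif5a2 and Eif1b held 74.3% and 73.7% G or C, against 61.7% in Eif3a, 55.0% in Eef1e1 and a median of 51.7% over the table. The 6 motifs were chosen after the expression values had been seen, and GC-rich windows meet GC-rich motifs more often.

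Expression is given as CPM, the read counts of a library relative to its TMM-scaled total, as mean ± SD of 2 rats. CPM are not corrected for gene length, so levels are compared between libraries and not between genes. Total counts per library ran from 39489103 to 60818457. The 5 genes had from 1518 to 34306 counts in a library, and counting alone gives an error of 0.540% to 2.57% of such a value. Differences between the rats of a group were larger than that in most cases. According to the study's methods the rats of a group are independent biological duplicates. With 2 rats against 2, a two-sided exact permutation test cannot go below p = 0.333, so tests are from models fitted across all genes.

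**Figure D1:**
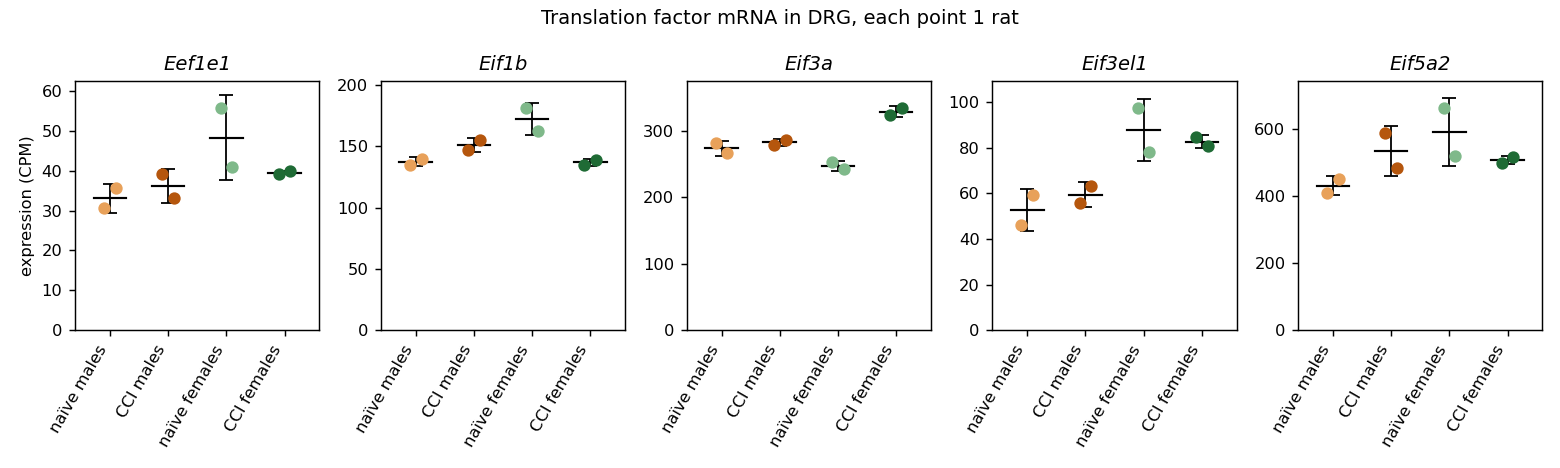
CPM (vertical axis, starting at 0 in each panel) of the 5 translation factor genes in the 4 groups. Each point is 1 rat, the horizontal line the group mean and the bar the SD (n = 2). Naïve females 1 is the highest point for Eef1e1, Eif1b, Eif3el1 and Eif5a2, and the CCI females are the highest group for Eif3a.

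Eif3a (ENSRNOG00000010117), which encodes the largest subunit and scaffold of eIF3, was expressed at 281.8 and 266 CPM in naïve males and at 279 and 286 CPM in CCI males. In females it was at 253 and 242 CPM in naïve rats and at 323 and 335 CPM after CCI. The male groups overlapped, whereas both CCI females lay above every other library and both naïve females below every other library. The share of all genes with this order was not counted, and the order is partly fixed by the choice of the gene. Group means ran from 329 ± 8.23 CPM in CCI females through 283 ± 5.13 in CCI males and 274 ± 11.1 in naïve males to 247 ± 7.28 in naïve females. CCI males and naïve males were the neighbors in that order that overlapped. The log2 fold change (log2FC) after CCI was 0.40 (SE 0.0791) in females and 0.05 (SE 0.0628) in males. The difference of these changes, 0.37, is what placed the gene in its list.

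Averaged over the sexes, Eif3a was higher after CCI, with a mean of 306 CPM against 261 CPM. The log2FC was 0.23 (SE 0.0459, 95% interval 0.12 to 0.33), which is 1.17-fold (1.09 to 1.26), with an adjusted p of 0.00612 in edgeR's quasi-likelihood test and 0.000216 in DESeq2. It remained below 0.05 with any 1 library left out, and over all alternatives the adjusted p ran from 0.000216 to 0.0264. The change was under the log2FC of 0.5 that the study asked of a differentially expressed gene, so it was not called. An adjusted p under 0.05 with a higher level was met by 21.3% of all genes tested. Over both sexes the CCI and naïve libraries overlapped, since naïve males 1 lay above CCI males 1.

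Eif1b (ENSRNOG00000018848) encodes a close relative of the start codon factor eIF1, and whether reads of the near copy Eif1 were counted on it was not tested. It was at 135.0 and 139.9 CPM in naïve and 147 and 155 CPM in CCI males, and the females had 181 and 163 CPM when naïve and 134.8 and 139 CPM after CCI. Both CCI males lay above both naïve males, and both CCI females below both naïve females, as in 3.59% of all genes, or 7.01% with either sex above. The group means were 172 ± 13.2 CPM in naïve females, 151 ± 5.94 in CCI males, 137 ± 3.43 in naïve males and 137 ± 2.87 in CCI females. The last pair overlapped, and the other neighbors did not. The log2FC after CCI was 0.14 (SE 0.0661) in males and -0.34 (SE 0.0852) in females. Because these have opposite signs, the average over the sexes was small, at -0.10 (SE 0.0521, 95% interval -0.22 to 0.02), with an edgeR adjusted p of 0.173.

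Eif5a2 (ENSRNOG00000011859) encodes the second eIF5A isoform, which also carries hypusine, and whether reads of its near copy Eif5a were counted on it was not tested. Its values were 409.9 and 451 CPM in naïve and 588 and 482 CPM in CCI males, and the females had 663 and 518 CPM when naïve and 498 and 516 CPM after CCI. The CCI males lay above the naïve males, and both CCI females lay below both naïve females, the nearest pair by a small step from 518 to 516 CPM. Group means were 590.3 ± 103 CPM in naïve females, 535 ± 74.9 in CCI males, 507 ± 12.8 in CCI females and 430.5 ± 29.1 in naïve males. The first 3 of these groups overlapped with their neighbors, and naïve males lay below the rest. The log2FC after CCI was 0.32 (SE 0.120) in males and -0.23 (SE 0.119) in females, and without naïve females 1 the female value shrank to -0.04. The average over the sexes was 0.05 (SE 0.0960, 95% interval -0.18 to 0.27), with an edgeR adjusted p of 0.734.

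Eif3el1 (ENSRNOG00000027690) is named for its likeness to Eif3e, the eIF3 subunit e gene. The RefSeq table carries Eif3el1 both as a gene of its own and as an older name of Eif3e, so its reads may be shared with that near copy and its level is uncertain to that degree. It was at 46.0 and 59.3 CPM in naïve and 55.6 and 63.2 CPM in CCI males, and the females had 97.5 and 78.1 CPM when naïve and 84.7 and 80.6 CPM after CCI. Every female library lay above every male library. This is partly fixed by the choice, since the naïve libraries placed the gene in its list, and the share of all genes with it was not counted. The group means were 87.8 ± 13.7 CPM in naïve females, 82.6 ± 2.93 in CCI females, 59.4 ± 5.39 in CCI males and 52.6 ± 9.37 in naïve males, with overlap between the groups of the same sex. The log2FC of females against males was 0.74 (SE 0.167) in naïve rats, the comparison that placed the gene in its list.

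In the CCI rats, which that list did not use, both females lay above both males for Eif3el1. The log2FC was 0.48 (SE 0.0870, 95% interval 0.27 to 0.69). The first male was the lower in the naïve and in the CCI group, and same-numbered males deviated together. The comparison is therefore not fully independent of that list. The unadjusted p of edgeR's quasi-likelihood test was 0.00151 and the adjusted p 0.0743, so the difference was not called. DESeq2 gave an adjusted p of 0.000233 for a log2FC of 0.48, also not called because it was under 0.5. Without CCI males 2 the log2FC was 0.58 with an adjusted p of 0.00396, which would be a call, and over all alternatives the adjusted p ran from 0.000233 to 0.359. In this comparison edgeR called 1.06% of all genes and DESeq2 2.32%, 18.3% had an unadjusted p under 0.05, and in 24.7% both CCI females lay above both CCI males. Averaged over the sexes, CCI changed Eif3el1 by 0.04 on the log2 scale (SE 0.103, 95% interval -0.19 to 0.28, adjusted p 0.771).

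Eef1e1 (ENSRNOG00000016390) is named as an elongation factor but encodes a scaffold protein of the multisynthetase complex, which gathers several aminoacyl-tRNA synthetases. It was at 30.6 and 35.7 CPM in naïve and 39.3 and 33.1 CPM in CCI males, and the females had 55.8 and 40.9 CPM when naïve and 39.2 and 39.9 CPM after CCI. Naïve females 1 stood above the rest, and the CCI females differed by less than 1 CPM. The group means were 48.3 ± 10.6 CPM in naïve females, 39.5 ± 0.447 in CCI females, 36.2 ± 4.36 in CCI males and 33.1 ± 3.61 in naïve males, and the last 3 overlapped with their neighbors. The log2FC of females against males was 0.55 (SE 0.172) in naïve rats and 0.13 (SE 0.0937, 95% interval -0.10 to 0.36) in CCI rats, the second with an edgeR adjusted p of 0.509. Averaged over the sexes, CCI changed Eef1e1 by -0.08 (SE 0.109, 95% interval -0.33 to 0.17, adjusted p 0.598).

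**Figure D2:**
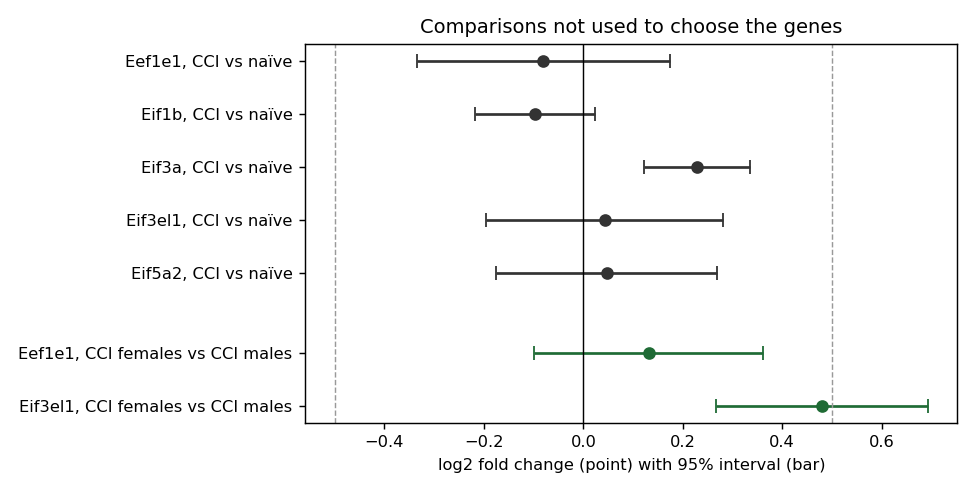
Log2FC (points) with 95% intervals (bars) in the 7 comparisons that were not used to choose the genes. These comparisons are not fully independent of that choice, since over all genes same-numbered naïve and CCI males deviated together. For Eef1e1 the first male was the lower in the naïve group and the higher in the CCI group. Dashed lines mark a log2FC of -0.5 and 0.5. The intervals of Eif3a after CCI (0.12 to 0.33) and of Eif3el1 between the sexes in CCI rats (0.27 to 0.69) lie above 0, and the other 5 include it.

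Averaged over the sexes, 0 of the 5 genes were called by edgeR and 0 by DESeq2, and 1 of them, Eif3a, had an unadjusted p under 0.05. Over all genes tested, 15.4% were called by edgeR in this comparison and 14% by DESeq2, and 49.6% had an unadjusted p under 0.05. The 5 genes had a median log2FC of 0.04 against -0.02 over all genes. The 4 intervals that include 0, those of Eif1b, Eif3el1, Eif5a2 and Eef1e1, ran at most from -0.33 to 0.28. A change in one sex that is reversed in the other does not show in it.

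The values within each sex share libraries with the listing. In males all 5 genes had a log2FC above 0 after CCI, from 0.05 for Eif3a to 0.32 for Eif5a2, and 0 were called. With 1 library left out these ranged from 0.00053 to 0.37 for Eif3el1, from 0.0077 to 0.25 for Eef1e1, from 0.0083 to 0.084 for Eif3a, from 0.095 to 0.18 for Eif1b and from 0.17 to 0.45 for Eif5a2, so the values of the first 3 came close to 0 without 1 of the rats. Of all genes, 21.6% were called in males and 49% had a log2FC above 0. In males the CCI rats lay above the naïve rats for Eif1b and Eif5a2 and overlapped with them for the other 3, and 36.3% of all genes had the CCI males above. In females 4 of the 5 had a log2FC below 0, from -0.10 for Eif3el1 to -0.34 for Eif1b, and Eif3a had 0.40, with 0 called. Of all genes, 5.69% were called in females and 47.6% had a log2FC above 0. Both CCI females lay below both naïve females for Eef1e1, Eif1b and Eif5a2, as in 29% of all genes.

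In naïve rats 4 of the 5 genes had a log2FC of females against males above 0, namely Eif3el1 at 0.74, Eef1e1 at 0.55, Eif5a2 at 0.46 and Eif1b at 0.33, and Eif3a had -0.14. For those 4, both naïve females lay above both naïve males. Of all genes, 0.0706% were called there by edgeR and 5.86% by DESeq2. With so few genes called by edgeR, its 0 of the 5 says nothing of these genes. Both naïve females lay above both naïve males in 29.5% of all genes, and 49.2% had a log2FC above 0. In CCI rats the genes listed for the sex difference in response had female against male log2FC of 0.22 (SE 0.0676) for Eif3a, -0.14 (SE 0.0673) for Eif1b and -0.07 (SE 0.105) for Eif5a2. The difference between the sexes in the change after CCI was -0.53 for Eif5a2, -0.47 for Eif1b, -0.42 for Eef1e1, -0.26 for Eif3el1 and 0.37 for Eif3a. By edgeR 1.59% of all genes were called for that difference and by DESeq2 9.52%. All of these comparisons share libraries with each other and with the listing, and nothing is read from the directions.

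The library of naïve females 1 held the highest level of 4 of the 5 genes, all but Eif3a, as the plot of deviations by library shows. That library was the highest of the 8 for 15.2% of all genes. The count of 4 is partly fixed by the choice, so it cannot be read against that share. Eef1e1 and Eif3el1 were listed as higher in naïve females, and the listing of Eif1b and Eif5a2 also used the naïve females. It exceeded naïve females 2 by 0.45 on the log2 scale for Eef1e1, 0.36 for Eif5a2, 0.32 for Eif3el1, 0.16 for Eif1b and 0.06 for Eif3a, where the median absolute difference over all genes was 0.153. Without it, the log2FC of naïve females against naïve males was 0.32 for Eef1e1, 0.28 for Eif5a2, 0.26 for Eif1b and 0.58 for Eif3el1. The change after CCI in females was then -0.06 for Eef1e1, -0.04 for Eif5a2, -0.26 for Eif1b and 0.07 for Eif3el1. The difference between the sexes in the change after CCI was then -0.18 for Eef1e1, -0.34 for Eif5a2, -0.39 for Eif1b and -0.09 for Eif3el1. Without naïve females 2 instead, that difference was -0.63 for Eef1e1, -0.70 for Eif5a2, -0.54 for Eif1b and -0.41 for Eif3el1. For Eif3el1 it also moved with the naïve males, to -0.09 without the first and -0.46 without the second.

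**Figure D3:**
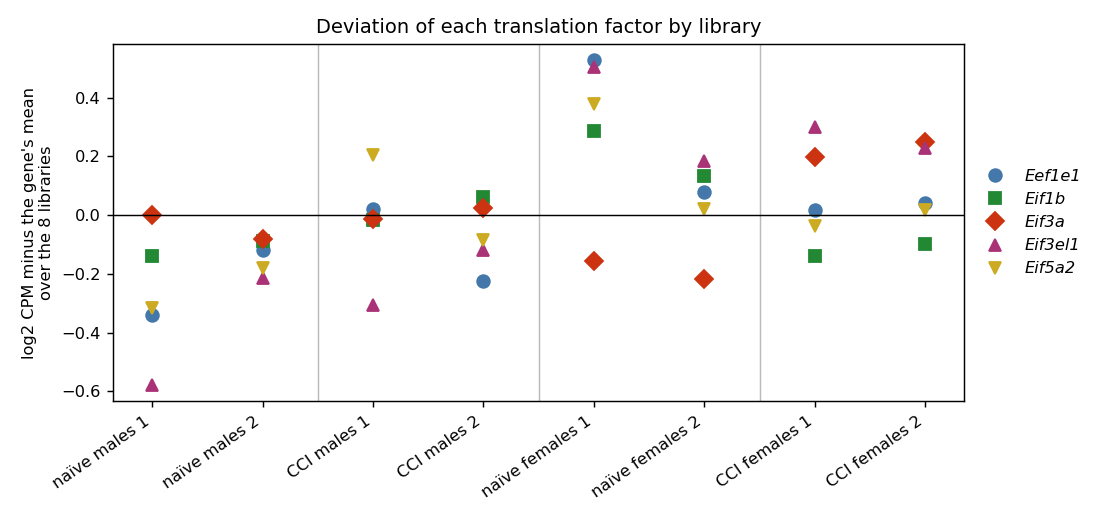
Log2 CPM of each gene minus its own mean over the 8 libraries (vertical axis) by library, with gray lines between the groups. In naïve females 1, Eef1e1 lies at 0.53, Eif3el1 at 0.50, Eif5a2 at 0.38 and Eif1b at 0.29, while Eif3a lies at -0.16.

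Across the 8 libraries, the log2 CPM of Eef1e1, Eif1b, Eif3el1 and Eif5a2 moved together, and Eif3a did not move with them. Pearson's r was 0.905 between Eef1e1 and Eif5a2, 0.822 between Eef1e1 and Eif3el1, and 0.724 both between Eef1e1 and Eif1b and between Eif1b and Eif5a2. It was 0.652 between Eif3el1 and Eif5a2 and 0.524 between Eif1b and Eif3el1. With Eif3a it was -0.689 for Eif1b, -0.28 for Eef1e1, -0.24 for Eif5a2 and 0.04 for Eif3el1. These are descriptions over 8 libraries that share groups and the high library of naïve females 1.

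For each gene, the genes with the most similar log2 CPM over the 8 libraries were taken from 1841 with a symbol, all from the published lists drawn on these same libraries. Eef1e1 was most similar to Tomm20 (Pearson's r 0.995), RGD1305587 (0.981) and Lysmd2 (0.980). Eif1b was most similar to Isca1 (0.984), Dynlrb1 (0.982) and Mcee (0.972). Eif3a was most similar to Tln1 (0.985), Phldb3 (0.973) and Kif22 (0.972). Eif3el1 was most similar to Ptges3l1 (0.985), Ppia (0.978) and Chchd4 (0.975). Eif5a2 was most similar to Yipf6 (0.985), Skp1 (0.980) and Emc4 (0.967). No 2 of the 5 genes shared an entry among these.

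**Figure D4:**
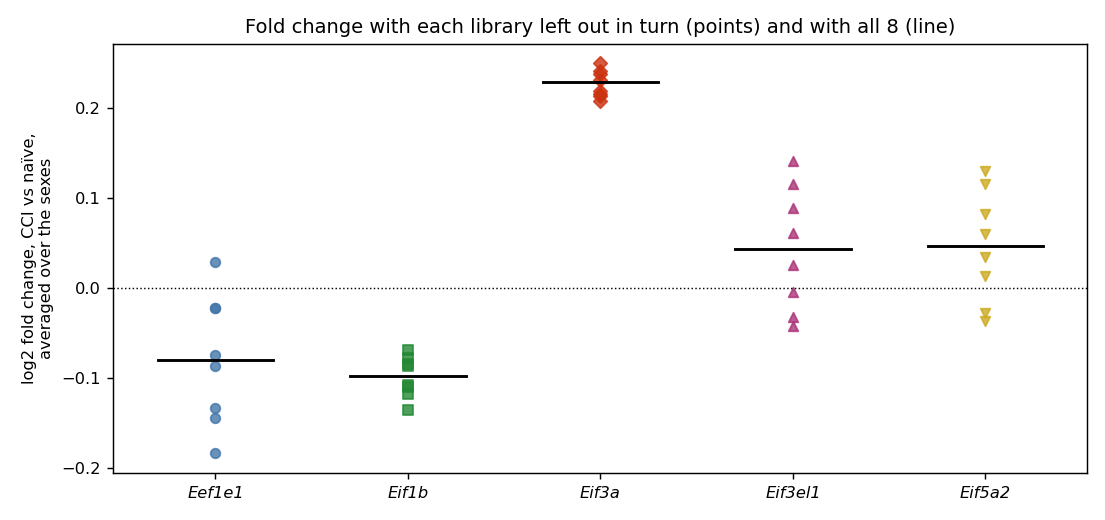
Log2FC of CCI against naïve averaged over the sexes (vertical axis) for each gene. The black line is the value with all 8 libraries and each point the value with 1 library left out. Eif3a stays between 0.21 and 0.25 and Eif1b below 0, while the points of Eef1e1, Eif3el1 and Eif5a2 lie on both sides of 0.

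Lists of translation genes were checked for other genes with a symbol. They held 278 symbols of ribosomal proteins, initiation, elongation and termination factors, synthetase complex proteins, regulators and ribosome assembly proteins, of which 14 had an identifier, the 5 genes above among them. Eif1, Eif5a and Eif3e, the closest relatives of Eif1b, Eif5a2 and Eif3el1, had none and were not analysed here. The other 9 were Fau, Gspt1, Tsc2, Paip2, Dkc1, Npm1, Tma7, Mrrf and Malsu1, all from lists drawn on these libraries.

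Averaged over the sexes, 0 of the 9 were called higher after CCI and 1 lower, beside 6.08% and 9.29% of all genes. The one called was Dkc1, which encodes dyskerin, the pseudouridine synthase that modifies ribosomal RNA. It fell from a mean of 42.8 to 29.0 CPM, with a log2FC of -0.51 (SE 0.0682, edgeR adjusted p 0.00112), just past the threshold on size. Without naïve males 1, naïve females 2 or CCI females 2 it was -0.46, -0.48 and -0.47, with adjusted p still under 0.05. In males Dkc1 was at 58.1 and 50.5 CPM in naïve rats and at 31.1 and 30.9 CPM after CCI, and in females at 29.8 and 32.6 CPM in naïve rats and at 28.6 and 25.3 CPM after CCI. Naïve males stood apart from the other 3 groups, and the gene had been listed for that, so its average change is not fully independent of the listing.

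Tsc2 encodes tuberin, an inhibitor of the growth signal through mTOR. Its average log2FC was -0.29 (SE 0.0614, edgeR adjusted p 0.00729), under the threshold on size. In females alone the log2FC was -0.09 (SE 0.0911), and the CCI and naïve females overlapped. Naïve males stood apart at 94.8 and 84.5 CPM, with every other library between 56.3 and 64.5 CPM, and Tsc2 had been listed as higher in naïve males. The average change of Tsc2 is therefore not fully independent of the listing. In males Tsc2 was called lower after CCI, as was Dkc1, with log2FC of -0.50 (SE 0.0762) and -0.80 (SE 0.0834). The call of Tsc2 was marginal, since its log2FC was -0.49 without a filter on low counts, -0.43 without naïve males 1 and -0.47 without CCI males 1. Dkc1 ran from -0.90 to -0.71 with 1 library left out, but without CCI males 1 edgeR called 0 genes of any kind in males (6494 at an unadjusted p under 0.05). Both had been listed on these male libraries, so this is a description, and 12.5% of all genes were called lower in males. The other 7 were not called in males, and 0 of the 9 were called in females, where 5.69% of all genes were called.

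Fau, which encodes a fusion of a ubiquitin-like protein with ribosomal protein S30, was the single gene of a cytosolic ribosomal protein with an identifier, under a name that the symbol form did not take. It was at 146 and 141 CPM in naïve and 135 and 127 CPM in CCI males, and the females had 261 and 173 CPM when naïve and 156 and 151 CPM after CCI. Naïve females 1 was again the highest. The average change after CCI was -0.31 (SE 0.116) with an adjusted p of 0.0635 in edgeR and 0.00511 in DESeq2 (0.00174 to 0.164 over all alternatives), and it was -0.16 without naïve females 1. That library was also the highest for 5 of the 9 genes, namely Fau, Paip2, Npm1, Tma7 and Malsu1. All of these but Malsu1 had been listed as higher in naïve females, so this count too is partly fixed by the choice. Over the 9, the median log2FC averaged over the sexes was -0.05, and it ran from -0.51 for Dkc1 to 0.18 for Npm1, a nucleolar protein of ribosome assembly.

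The libraries were checked for the cells they hold, with marker lists of which only part had an identifier. All 8 of 16 DRG neuron markers with an identifier had counts in every library. Their summed level was 16499 and 18772 CPM in naïve and 27476 and 27929 CPM in CCI males, and the females had 20056 and 20758 CPM when naïve and 21517 and 25604 CPM after CCI. The 7 of 12 Schwann cell and satellite glia markers summed to 13378 and 10988 CPM in naïve and 3518 and 3365 CPM in CCI males, and the females had 9501 and 7747 CPM when naïve and 5582 and 4322 CPM after CCI. In bulk samples such as these, fewer cells of a type and less RNA per cell cannot be told apart. Since the markers with an identifier are those in gene lists drawn on these libraries, a difference between the groups in these sums is partly fixed by that choice and says little of the cells as a whole. Its part in the values of the translation factors was not tested.

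Blood markers, all 8 with an identifier, summed to 140 and 1528 CPM in naïve and 276 and 247 CPM in CCI males, and the females had 1589 and 2371 CPM when naïve and 197 and 246 CPM after CCI. Naïve females 1 was below naïve females 2 in these, and both were above every CCI library. The 5 of 12 macrophage and lymphocyte markers summed to between 218 and 253 CPM in naïve and 298 and 304 CPM in CCI males, and the females had 374 and 383 CPM when naïve and 398 and 571 CPM after CCI. The 5 of 11 muscle markers summed to 90.5 and 97.1 CPM in CCI males and to between 25.0 and 46.5 CPM in the other 6 libraries. These markers too come from gene lists drawn on these libraries, so a difference between the groups in their sums is partly fixed by that choice. None of the markers of these 3 lists with an identifier was at 0 in any library, and their part in the values was not tested.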

How the data were processed

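RNA-seq counts of 8 rat DRG libraries were used. Per the labels and the study's methods, the authors made strand-specific poly(A) libraries, sequenced them in 2 batches, aligned reads to rn6 with HISAT2 (CASAVA 1.8.2 is also named in the submitters' processing notes) and used featureCounts to count them on Ensembl genes. Raw counts were deposited, without batch correction. Which library was in which batch is not given in the sources used here, so no value within a batch could be given. In both male groups the column of replicate 1 carries the letter a, whose meaning is not stated, and these libraries deviated together. The strand setting of the counting is not stated.

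Low counts were filtered with filterByExpr (all libraries together, minimum count 10, minimum total 15), and counts were normalized with TMM and tested with edgeR 4.0.16 (limma 3.58.1, R 4.3.3) by the quasi-likelihood F test with Benjamini-Hochberg adjustment over all genes. Called genes had an adjusted p under 0.05 and, except for the interaction, an absolute log2FC above 0.5. Comparisons of 2 groups used their 4 libraries, and the average and the interaction all 8. SE is the log2FC divided by the square root of F. Log2 CPM used a prior count of 2. The alternatives were DESeq2 1.42.0, its size factors in edgeR, other filters, a fit over all 8 libraries, a replicate block and leaving out each library. The scripts were tested on simulated data with 2-fold changes in known genes. In the comparisons with changed genes, false calls made up 7.07% to 16.2% of the edgeR calls and 12.3% to 25.3% of the DESeq2 calls. These shares are above the threshold on the adjusted p. In naïve females against naïve males, simulated without a change, edgeR called 5 genes and DESeq2 38.

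The genes and lists were chosen with earlier results of these data known. The genes named are every gene the symbol rule gives, genes called in the translation lists and, for each gene, the 3 most similar over the 8 libraries among those whose mean log2 CPM was 1 or more. Fau and Npm1 were named after their values were seen. Sequences are from RefSeq (GRCr8).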

Additional observations from a re-analysis of the deposited data

Results flagged for a closer look

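Eif1b and Eif5a2 had differences between CCI and naïve rats of opposite sign in the sexes. Both CCI males lay above both naïve males and both CCI females below both naïve females, for Eif5a2 by 516 against 518 CPM at the nearest. The change in females minus the change in males was -0.47 for Eif1b and -0.53 for Eif5a2 on the log2 scale. The difference was not tested here, because it is what placed both genes in the study's list. Over all genes, 7.01% had the sexes on opposite sides in this way, and 3.59% in this direction. Neither gene was called by edgeR in males or in females, where 21.6% and 5.69% of all genes were called. Without naïve females 1 the differences were -0.39 and -0.34, and the female value of Eif5a2 was -0.04.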

How the results depend on the processing

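The 7 tests of the translation factors were repeated under 85 alternatives. Direction and call were kept in 78, Eif3el1 between the sexes in CCI rats was called in 1 (without CCI males 2), and the sign changed in 6, all with 1 library left out. Averaged over the sexes, these ran from -0.18 to 0.029 for Eef1e1, from -0.042 to 0.14 for Eif3el1 and from -0.037 to 0.13 for Eif5a2, none of them called.

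The counts of genes called, beside which the translation factors are read, were less stable. CCI females against CCI males gave 180 genes, and 394 with DESeq2, 284 without a filter and 32 to 656 with 1 library left out. Naïve females against naïve males gave 12, and 996 with DESeq2, 130 without a filter, 906 in the fit over all 8 libraries, 0 with at least 10 counts in every library (edgeR, 4286 at an unadjusted p under 0.05) and 6 to 327 with 1 library left out. The interaction gave 270, and 1618 with DESeq2, 1032 without a filter, 532 with at least 10 counts in every library and 0 to 563 with 1 library left out, with 0 without naïve males 1, CCI males 2 or CCI females 2 (edgeR, 2728 to 3887 at an unadjusted p under 0.05). CCI against naïve gave 3663 in males and 967 in females, and 0 to 3722 and 84 to 1836 with 1 library left out. The 0 was without CCI males 1 (edgeR, 6494 at an unadjusted p under 0.05). The average over the sexes gave 2612, and 2009 to 2755. Where 1 library is left out, the lone rat of a group is assumed to vary like the other groups.

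With the replicate number as a block, the counts were 68 for CCI females against CCI males 6 for naïve females against naïve males, 314 for the interaction, 4478 in males, 1180 in females and 2598 for the average over the sexes. Same-numbered rats of the male groups deviated together (correlation 0.731 over genes), and the column names of both first males carry the letter a. Whether these males share anything beyond the number is not given in the sources and was not tested. The other pairs of groups had correlations from -0.0200 to 0.142, so the number was not taken as a pairing over all groups. The cause of these shifts was not tested.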
